A study of Mus musculus with 7 samples.

Results

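Transcripts of Schwann cells and neurons were examined in pancreatic islets of pregnant mice that carried 1 or both functional alleles of the prolactin receptor gene. The set was chosen by gene name and held 51 genes, of which 50 were measured by a probe set annotated with that gene alone, out of 19938 genes tested. Prx, which encodes the myelin protein periaxin, was not analysed here. Islets were taken on day 15 of pregnancy from 3 PrlR+/+ females, the controls, and from 4 PrlR+/- females, heterozygous for a null allele. All 7 females were on the C57BL/6 background and had been mated at 12 to 16 weeks of age. Each sample had 1 Affymetrix array and is called a mouse here, though the labels do not say whether islets of several females were pooled. A null allele of this kind is not limited to islet cells, so nerves and glia carry it too.

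Islets are innervated by parasympathetic, sympathetic and sensory fibres, and ganglia that lie in the exocrine pancreas supply them with cholinergic and peptidergic input. Schwann cells accompany these fibres and also form a sheath around the islet. Endocrine cells share many genes with neurons, among them those of synaptic vesicles, microtubule-associated proteins and neurofilaments, so a neuronal gene measured in whole islets need not come from a nerve. The members were therefore described in 3 groups, assigned from general knowledge and not from these data: 14 measured glial genes, 14 neuronal genes that islet endocrine cells are also known to express, and 22 other neuronal genes. Whole islets were assayed, so fewer cells of a type and less RNA per cell cannot be told apart.

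The deposited log2 values ran from 1.73 to 13.97, and the median gene lay between 7.34 and 7.37 on every array. No detection call came with the values. Of the 50 members, 6 had a mean below the lower quartile of gene means (5.71): Gfap, Cdh19, Erbb4, Dbh, Chat and Slc17a6. Sox10, the transcription factor that defines Schwann cells, was at 6.92 over the 7 arrays and S100b at 6.02, both below the median of gene means (7.36). Signals of the measured myelin genes differed widely, with Pmp22 at 10.48, Mbp at 8.84, Cnp at 7.91 and Mag at 5.92. The genotype of the controls was taken from the sample source, PrlR+/+ wild type; another label of the same samples adds the word null to wild type. The targeted receptor gene was not analysed here, so genotypes were not checked against its level. The precision was limited by the number of arrays, 3 against 4, with a median standard error of 0.098 for a log2 difference, and p-values measure the spread between these samples.

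Values of both genotypes were compared to ask whether loss of 1 receptor allele was accompanied by a change in nerve and glial transcripts. No member passed the threshold. limma called 0 members at a Benjamini-Hochberg adjusted p under 0.05 over all genes (background 0%), and the smallest adjusted p of a member was 0.99. At an unadjusted p under 0.05, 3 members were counted, against 2.2% of all genes: Hpcal4 and Vip on the higher side (background 1.07%) and Ngfr on the lower side (background 1.13%). The genotypes did not overlap for 1 member, Hpcal4, against 2.24% of all genes in either direction, 1.03% higher and 1.21% lower.

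Means were higher in PrlR+/- for 40 of the 50 members, where 55.7% of all genes had a higher mean. The median log2 difference was 0.10 over the members and 0.014 over all genes. By group the median was 0.097 for the glial genes, with 11 of 14 higher, 0.12 for the neuronal genes known in endocrine cells, with 13 of 14 higher, and 0.093 for the other neuronal genes, with 16 of 22 higher. The background itself depended on signal: 66.0% of genes below the lower quartile had higher means in PrlR+/-, but 47.9% of genes between the median and the upper quartile and 44.2% of genes above it. Among members in those upper ranges, 14 of 17 and 10 of 13 had higher means. Below the lower quartile it was 5 of 6 members. Between the lower quartile and the median it was 11 of 14, against 64.8% of all genes in that range. The list was chosen with earlier results of these data known, so its count gets no test. For 38 of 50 members the 95% interval of the difference lay within 1.5-fold in both directions, against 89.9% of all genes.

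**Figure D1:**
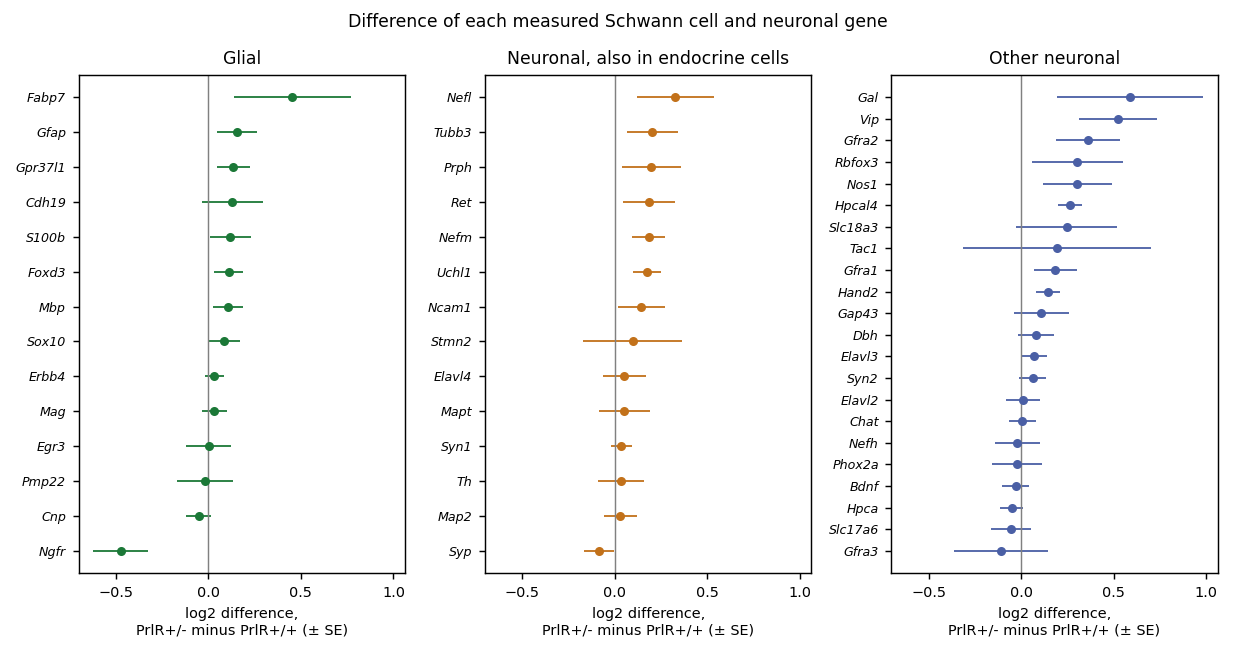
Log2 difference (PrlR+/- minus PrlR+/+, horizontal axis) of each of the 50 measured genes, with limma's standard error as the bar, in the glial, endocrine-shared neuronal and other neuronal groups. Most points lie slightly to the right of 0; Ngfr, at -0.47, lies farthest to the left, and Gal, at 0.59, farthest to the right.

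Among the glial genes, transcription factors and identity markers had small positive differences. Sox10 was at 6.85, 6.91 and 6.86 in PrlR+/+ 1 to 3 and at 6.94, 7.07, 6.78 and 7.05 in PrlR+/- 1 to 4. Its difference was 0.087 ± 0.082 (SE), and the genotypes overlapped because PrlR+/- 3 held the lowest value of all. Foxd3, a transcription factor of the neural crest and of early Schwann cells, differed by 0.11 ± 0.077. The calcium-binding protein gene S100b differed by 0.12 ± 0.11, the intermediate filament gene Gfap, made by non-myelinating Schwann cells and by pancreatic stellate cells, by 0.16 ± 0.11, and the adhesion gene Cdh19 by 0.13 ± 0.16.

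Gpr37l1, a receptor of glial cells, had the second smallest unadjusted p of the glial genes. It was at 6.78, 6.73 and 6.86 in PrlR+/+ and at 6.90, 7.13, 6.81 and 6.86 in PrlR+/- islets. PrlR+/- 3 lay below PrlR+/+ 3, so the genotypes overlapped, and the difference was 0.14 ± 0.088 (SE; limma adjusted p = 0.99).

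Ngfr, the low-affinity neurotrophin receptor of Schwann cells, sympathetic fibres and stromal cells, differed in the other direction from most members. Its log2 value was 8.90, 8.54 and 9.06 among the 3 controls and 8.59, 8.15, 8.40 and 8.30 in PrlR+/- 1 to 4. Only PrlR+/- 1 reached into the PrlR+/+ range, where it lay just above PrlR+/+ 2. The group means were 8.83 ± 0.27 (SD, n = 3) and 8.36 ± 0.18 (SD, n = 4), a difference of -0.47 ± 0.15 (SE), or a ratio of 0.72 (limma, unadjusted p = 0.0139, adjusted p = 0.99). With a mouse left out the difference ran from -0.62 without PrlR+/+ 2 to -0.36 without PrlR+/+ 3, and without PrlR+/+ 3 the unadjusted p was no longer under 0.05.

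Fabp7, a fatty acid binding protein of immature Schwann cells and other glia, varied most among the glial genes. It was at 9.16, 8.55 and 9.06 in PrlR+/+ and at 9.88, 9.75, 9.28 and 8.6 in PrlR+/- islets. PrlR+/- 1, 2 and 3 lay above every PrlR+/+ mouse, while PrlR+/- 4 lay beside the lowest PrlR+/+ mouse. The difference was 0.45 ± 0.32 (SE), and 0.71 without PrlR+/- 4. Erbb4, a neuregulin receptor, was at 5.36 on 5 of 7 arrays and had a difference of 0.033 ± 0.052, and Egr3, an immediate early transcription factor, had a difference of 0.0017 ± 0.12.

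Myelin genes had 2 higher and 2 lower means. Mbp, a structural protein of compact myelin, differed by 0.11 ± 0.082, and Mag, which joins the myelin sheath to the axon, by 0.032 ± 0.067. Pmp22, a membrane protein of peripheral myelin that other cells also make, differed by -0.018 ± 0.15 and Cnp, a phosphodiesterase of myelinating cells, by -0.053 ± 0.066. The upper bound of the 95% interval was 0.30 for Mbp, a difference well under 1.5-fold.

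Neuronal genes that endocrine cells are also known to express had higher means in PrlR+/- islets for 13 of 14. The exception, Syp, which encodes the vesicle protein synaptophysin, was at -0.087 ± 0.081 (SE). Uchl1, the deubiquitinating enzyme known as a marker of nerve fibres, was at 8.73, 8.61 and 8.65 in PrlR+/+ and at 8.83, 8.69, 8.92 and 8.92 in PrlR+/- islets. PrlR+/- 2 lay below PrlR+/+ 1 and the other 3 PrlR+/- mice lay above all PrlR+/+ mice, with a difference of 0.18 ± 0.076 (SE; limma, unadjusted p = 0.0506, adjusted p = 0.99).

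Nefm, the medium neurofilament subunit, was at 6.40, 6.44 and 6.37 in PrlR+/+ and at 6.65, 6.41, 6.53 and 6.76 in PrlR+/- islets. Here too PrlR+/- 2 alone fell within the PrlR+/+ range, and the difference was 0.18 ± 0.089 (SE; limma adjusted p = 0.99). The other intermediate filaments of this group were Nefl, the light subunit, at 0.33 ± 0.21, and Prph, peripherin of peripheral neurons, at 0.20 ± 0.16. For both, PrlR+/+ 3 held the lowest value of all 7 mice, 7.05 for Nefl and 7.25 for Prph.

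Microtubule and growth genes had differences of 0.20 ± 0.14 for the neuronal tubulin gene Tubb3, 0.096 ± 0.27 for Stmn2, a regulator of microtubules in growing axons, 0.050 ± 0.14 for Mapt, which encodes tau, and 0.031 ± 0.089 for Map2 of dendrites. Stmn2 spread widely in PrlR+/- islets, at 9.82, 10.14, 9.43 and 8.90, around PrlR+/+ values of 9.52, 9.46 and 9.45. Syn1, a vesicle-associated phosphoprotein, differed by 0.035 ± 0.056 with an upper 95% bound of 0.17, and the RNA-binding protein gene Elavl4 by 0.053 ± 0.12. The adhesion gene Ncam1 differed by 0.14 ± 0.13 and the GDNF co-receptor kinase gene Ret by 0.19 ± 0.14. Th, the enzyme that starts catecholamine synthesis in sympathetic nerves, was at 10.47 in each of the 3 PrlR+/+ mice and between 10.20 and 10.77 in PrlR+/- islets.

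Of the other neuronal genes, Hpcal4 gave the smallest p of all members. It encodes a neuronal calcium sensor of the visinin-like family. Its log2 value was 6.67, 6.81 and 6.67 among the 3 controls and 6.97, 7.07, 6.94 and 6.94 in PrlR+/- 1 to 4. Every PrlR+/- mouse lay above every PrlR+/+ mouse, with means of 6.98 ± 0.062 (SD, n = 4) and 6.72 ± 0.081 (SD, n = 3). The difference was 0.26 ± 0.065 (SE), a ratio of 1.2 (limma, unadjusted p = 0.0045, adjusted p = 0.99). It lay between 0.23 and 0.31 with any mouse left out, and it was 0.27 with quantile normalization or median centring. The mean of Hpcal4 over the 7 arrays, 6.87, lay below the median of gene means (7.36). Among the 4984 genes between the lower quartile and that median, 64.8% had higher means in PrlR+/-. Without overlap, 70 of them were higher and 24 lower. Hpca, which encodes hippocalcin of the same family, was at -0.052 ± 0.064, and the related genes Hpcal1 and Ncs1 were at 0.030 ± 0.093 and 0.15 ± 0.097.

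The neuropeptide genes Gal and Vip had the largest positive differences of the members. Vip encodes vasoactive intestinal peptide of parasympathetic ganglion cells, Gal encodes galanin, a peptide of sympathetic and intrinsic nerves that restrains insulin release, and Tac1 encodes substance P of sensory fibres. Vip was at 10.05, 10.53 and 9.57 in PrlR+/+ 1 to 3 and at 10.77, 10.55, 10.52 and 10.45 in PrlR+/- 1 to 4. The PrlR+/- mice lay close together and the PrlR+/+ mice far apart, and PrlR+/+ 2 lay within the PrlR+/- range. The means were 10.57 ± 0.14 (SD, n = 4) and 10.05 ± 0.48 (SD, n = 3), a difference of 0.52 ± 0.21 (SE) and a ratio of 1.44 (limma, unadjusted p = 0.0392, adjusted p = 0.99). The difference was 0.28 without PrlR+/+ 3 and 0.76 without PrlR+/+ 2. Its unadjusted p stayed under 0.05 without PrlR+/+ 2, and did not without any of the other 6 mice, with the acinar covariate described further on or with the replicate number as a block.

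Gal was at 8.68, 9.52 and 8.25 in PrlR+/+ and at 9.06, 10.28, 9.30 and 8.98 in PrlR+/- islets, a difference of 0.59 ± 0.39 (SE). PrlR+/+ 2 lay above 3 of the 4 PrlR+/- mice, and the difference was 0.94 without PrlR+/+ 2, 0.30 without PrlR+/- 2 and 0.31 without PrlR+/+ 3. Tac1 was at 8.75, 9.35 and 7.79 in PrlR+/+ and at 9.44, 9.59, 8.0 and 8.26 in PrlR+/- islets, a difference of 0.19 ± 0.51 that changed sign with the mouse left out. In all 3 peptide genes the highest PrlR+/+ value was that of PrlR+/+ 2 and the lowest that of PrlR+/+ 3.

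Promoter sequences are shown for Vip and Gal, which had the largest positive differences, for Tac1 as the third peptide gene and for Hpcal4, which gave the smallest p. Each is the 250 bases before the RefSeq start (assembly GRCm38.p6): chr10:5638968-5639217, plus strand, for Vip, chr6:7554811-7555060, plus strand, for Tac1, chr19:3414545-3414794, minus strand, for Gal and chr4:123183254-123183503, plus strand, for Hpcal4. Capitals mark the letters TGACG, or CGTCA for the other strand, which form a half-site of the cyclic AMP response element. The pair of strands overlaps where the full palindrome is present.
Vip: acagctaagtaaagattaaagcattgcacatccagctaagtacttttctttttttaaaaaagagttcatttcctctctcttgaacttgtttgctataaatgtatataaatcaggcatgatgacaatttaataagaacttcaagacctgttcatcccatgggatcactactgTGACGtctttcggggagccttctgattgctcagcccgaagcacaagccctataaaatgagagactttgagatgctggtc
Tac1: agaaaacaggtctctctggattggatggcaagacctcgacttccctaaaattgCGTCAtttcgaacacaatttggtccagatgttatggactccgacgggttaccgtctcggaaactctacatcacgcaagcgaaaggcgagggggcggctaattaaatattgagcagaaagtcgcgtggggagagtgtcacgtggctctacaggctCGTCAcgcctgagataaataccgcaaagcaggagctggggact
Gal: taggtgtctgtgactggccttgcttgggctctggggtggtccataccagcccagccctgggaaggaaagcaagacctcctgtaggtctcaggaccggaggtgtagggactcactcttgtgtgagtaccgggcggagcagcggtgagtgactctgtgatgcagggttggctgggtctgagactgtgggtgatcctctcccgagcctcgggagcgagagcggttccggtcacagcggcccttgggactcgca
Hpcal4: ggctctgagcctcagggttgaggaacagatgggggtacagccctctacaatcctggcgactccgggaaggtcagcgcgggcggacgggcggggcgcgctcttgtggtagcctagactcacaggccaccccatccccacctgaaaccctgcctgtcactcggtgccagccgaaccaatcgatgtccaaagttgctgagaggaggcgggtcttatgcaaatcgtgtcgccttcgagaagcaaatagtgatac
The letters began 79 bases before the start in Vip, and 197 and 43 bases before it in Tac1, and they were not in these windows of Gal and Hpcal4. They were present in 17.8% of 32851 RefSeq promoters of this length and in 15 of 59 promoters (25.4%) of the 36 members that had an entry. A match is a description of the letters; binding at these promoters was not measured.

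**Figure D2:**
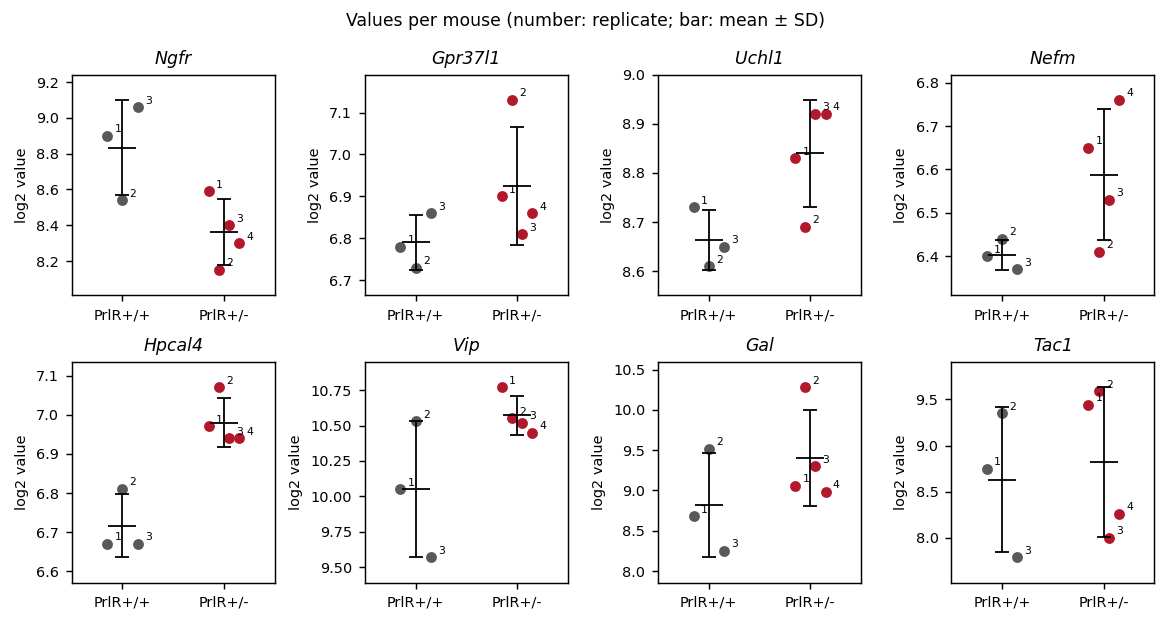
Log2 value of 8 genes in each mouse (vertical axis; grey, PrlR+/+; red, PrlR+/-; numbers give the replicate), with the mean and SD of each genotype as the black bar. Hpcal4 has no overlap between genotypes, whereas the PrlR+/+ mice span 9.57 to 10.53 for Vip and 8.25 to 9.52 for Gal.

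Genes of transmitter synthesis, transport and autonomic identity were mixed. Hand2, a transcription factor of sympathetic and enteric neurons, was at 7.10, 7.20 and 7.0 in PrlR+/+ and at 7.20, 7.28, 7.23 and 7.27 in PrlR+/- islets. The genotypes met at 7.20, and the difference was 0.15 ± 0.065 (SE; limma adjusted p = 0.99). Phox2a, another autonomic transcription factor, differed by -0.023 ± 0.14, and Dbh, the enzyme that makes noradrenaline, by 0.078 ± 0.098. Nos1, the neuronal nitric oxide synthase, differed by 0.30 ± 0.19 and the vesicular acetylcholine transporter gene Slc18a3 by 0.25 ± 0.27. Slc18a3 lies within the Chat gene, and Chat, which makes acetylcholine, differed by 0.0067 ± 0.073 at a signal below the lower quartile of gene means. The vesicular glutamate transporter gene Slc17a6 was at -0.054 ± 0.11.

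Receptors of the GDNF family ligands, which sustain parasympathetic and sympathetic neurons, did not share a direction. Gfra2, the receptor of neurturin on parasympathetic neurons, was at 7.95, 8.25 and 7.94 in PrlR+/+ and at 8.79, 8.49, 8.26 and 8.09 in PrlR+/- islets. PrlR+/- 4 lay below PrlR+/+ 2, and the difference was 0.36 ± 0.17 (SE; limma, unadjusted p = 0.0707, adjusted p = 0.99). Gfra1, the receptor of GDNF, differed by 0.19 ± 0.11 and Gfra3, the receptor of artemin, by -0.11 ± 0.25. The neurotrophin gene Bdnf was at 5.80 in each PrlR+/+ mouse and differed by -0.030 ± 0.074.

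The remaining neuronal genes bind RNA or shape axons and synapses. Rbfox3, the splicing factor known as NeuN, was at 7.22, 7.57 and 7.39 in PrlR+/+ and at 7.42, 7.27, 8.33 and 7.77 in PrlR+/- islets, and its difference of 0.30 ± 0.25 was 0.093 without PrlR+/- 3. Elavl2 and Elavl3, relatives of Elavl4, differed by 0.0092 ± 0.093 and 0.070 ± 0.069, and the vesicle gene Syn2 by 0.063 ± 0.074. Gap43, a protein of growth cones, differed by 0.11 ± 0.15 and Nefh, the heavy neurofilament subunit, by -0.022 ± 0.12.

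The mean of the 22 other neuronal genes differed by 0.14 between genotypes, with an SD of 0.15 among PrlR+/+ mice. It was 7.45, 7.61 and 7.31 for PrlR+/+ 1 to 3 and 7.71, 7.68, 7.53 and 7.47 for the PrlR+/- mice; of these, numbers 3 and 4 fell below PrlR+/+ 2. PrlR+/+ 2 alone was the highest PrlR+/+ mouse for 16 of these 22 genes, against 35.7% of all genes, and PrlR+/+ 3 alone the lowest for 11, against 25.7% of all genes. The glial mean ran from 7.14 to 7.20 for the controls and from 7.15 to 7.27 for heterozygotes. The mean of the neuronal genes known in endocrine cells was 9.13, 9.12 and 9.06 in PrlR+/+ and 9.19, 9.21, 9.26 and 9.21 in PrlR+/- islets and did not overlap, a description of a list that was chosen with results known.

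**Figure D3:**
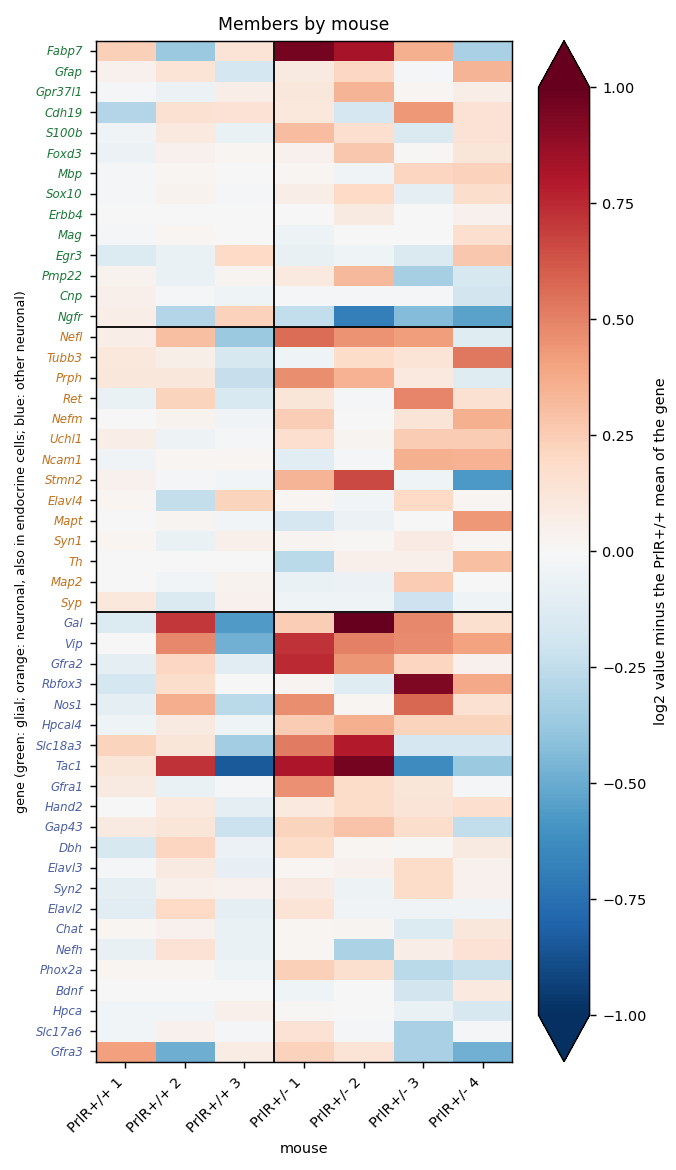
Log2 value of each member (rows) in each mouse (columns) minus the PrlR+/+ mean of that gene; red is higher and blue lower, colours end at 1 and -1, and horizontal lines separate the glial, endocrine-shared neuronal and other neuronal groups. In the PrlR+/+ columns Vip, Gal and Tac1 are red in mouse 2 and blue in mouse 3, and Ngfr is blue in all 4 PrlR+/- columns.

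Leaving out a mouse changed how many members separated the genotypes. Without PrlR+/+ 2, 11 members lay higher without overlap (5.19% of all genes) and 2 lower, Ngfr and Syp (5.09% of all genes), among the former Vip, Gal, Hand2, Nos1, Gfra2 and Nefm. The higher count was 2 without PrlR+/+ 1 (3.55% of all genes) or PrlR+/+ 3 (2.85%) and 4 without PrlR+/- 1 (2.37%). It was 3 without PrlR+/- 2 (3.18%) or PrlR+/- 3 (2.92%) and 6 without PrlR+/- 4 (1.53%). The lower count was 1 without PrlR+/- 1 (3.04% of all genes) and 0 without any of the other 5. Groups of fewer mice overlap less often, so each count is read against its own background, 1.53% to 3.55% of all genes higher and 2.0% to 3.16% lower for these 6 mice. Hpcal4 was counted each time. At an unadjusted p under 0.05 the count of higher members was 5 without PrlR+/+ 2 (1.44% of all genes) and 4 without PrlR+/- 4 (0.782%). It was 3 without PrlR+/- 2 (2.21%) or PrlR+/- 3 (1.43%), and 1 without PrlR+/+ 1 (0.898%), PrlR+/+ 3 (0.547%) or PrlR+/- 1 (1.39%).

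Markers of other tissue in the preparation also varied between mice. The mean of 14 acinar markers was 12.40, 12.72 and 12.34 among the 3 controls and 12.46, 12.85, 12.64 and 12.41 in PrlR+/- 1 to 4, with 13 of 14 genes higher in PrlR+/- and none passing. Like the mean of the other neuronal genes, it was highest of the PrlR+/+ mice in PrlR+/+ 2 and lowest in PrlR+/+ 3. Stellate and fibroblast markers (7.51, 7.60 and 7.41 in PrlR+/+ 1 to 3) and endothelial markers (9.32, 9.35 and 9.26) had this order too. Duct, myeloid, beta, and alpha, delta and PP cell markers did not. Only the acinar mean was fitted as a covariate. Among PrlR+/- mice the orders of the other neuronal and acinar means differed. The other neuronal mean was highest in PrlR+/- 1 (7.71) and the acinar mean in PrlR+/- 2 (12.85), and both were lowest in PrlR+/- 4. With the acinar mean as a covariate the difference was 0.27 ± 0.12 (SE) in place of 0.59 ± 0.39 for Gal. It was -0.051 ± 0.47 in place of 0.19 ± 0.51 for Tac1, 0.43 ± 0.20 for Vip and 0.23 ± 0.061 for Hpcal4. For Ngfr it was -0.38 ± 0.11 and for Uchl1 0.21 ± 0.074. In this fit 3 members were higher at an unadjusted p under 0.05 (1.27% of all genes), Hpcal4, Nefm and Uchl1, and 1 was lower, Ngfr (1.42%). Of 13 stellate cell and fibroblast markers 12 had higher means, with a list mean of 7.41 to 7.60 among controls and 7.46 to 7.86 among heterozygotes. The surface glycoprotein gene Thy1, which neurons also make, was the 1 stellate marker whose genotypes did not overlap, at 0.34 ± 0.088 (SE; limma adjusted p = 0.99). Of the other marker lists the genotypes did not overlap for endothelial Emcn (0.26), macrophage Lyz2 (0.64) and ductal Sox9 (0.21). Each was higher in PrlR+/-, as were 1.03% of all genes without overlap, and was 1 of 12, 1 of 12 and 1 of 6 markers. Means were higher for 9 and lower for 3 endothelial markers, 8 and 4 myeloid markers, and 4 and 2 duct markers. The median differences of these lists were 0.071, 0.029 and 0.070. Of the alpha, delta and PP cell markers 6 had higher and 0 lower means, with a median of 0.0675. Of the beta cell markers 3 had higher and 6 lower means, with a median of -0.041. Of all genes 55.7% had a higher mean. Endothelial markers ran from 9.26 to 9.35 and from 9.25 to 9.61, highest in PrlR+/- 2, and duct markers from 7.21 to 7.40 and from 7.31 to 7.58. Myeloid markers ran from 6.98 to 7.17 and from 7.12 to 7.27, the 6 alpha, delta and PP cell markers from 11.59 to 11.78 and from 11.67 to 11.84, and beta cell markers from 12.05 to 12.24 and from 11.89 to 12.18. The part of these cells in the nerve and glial values was not tested. The acinar covariate only adds a term to a fit of 7 arrays. Its markers reached 13.72 (Ctrb1), close to the highest deposited value of 13.97, though Ptf1a was at 6.66. Whether the brightest signals were compressed was not tested.

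**Figure D4:**
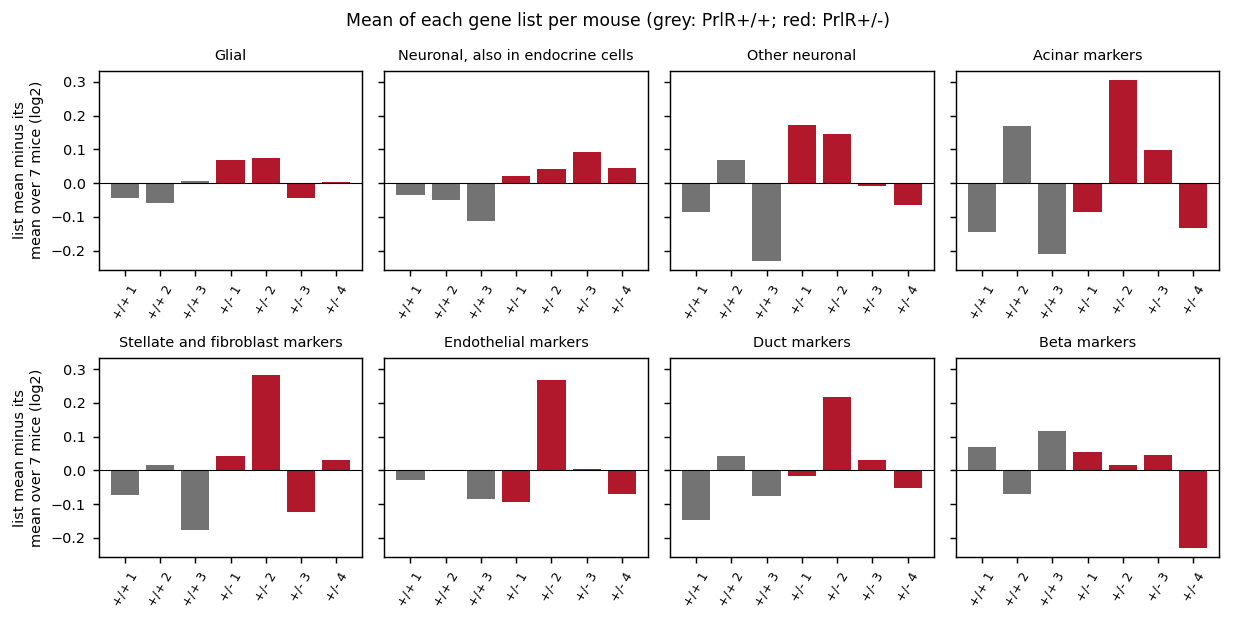
Mean log2 value of each gene list per mouse, minus the mean of that list over the 7 mice (bars; grey, PrlR+/+; red, PrlR+/-). PrlR+/+ 2 stands above and PrlR+/+ 3 below the other PrlR+/+ mice for the other neuronal genes and for the acinar, stellate and endothelial markers. PrlR+/- 2 is the highest mouse for acinar, stellate, endothelial and duct markers, whereas PrlR+/- 1 is the highest for the other neuronal genes.

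Further genes of the same cell types were measured, and limma called 0 of them at an adjusted p under 0.05. As background, 55.7% of all genes had a higher mean in PrlR+/-. The share was 66.0% below the lower quartile of signal and 64.8% from there to the median. It was 47.9% from the median to the upper quartile and 44.2% above it. Without overlap, 1.03% of all genes were higher and 1.21% lower. Of 27 measured Schwann cell genes outside the set, 22 had higher and 5 lower means, with a median of 0.077. L1cam, an adhesion molecule of axons and Schwann cells, was at 7.59, 7.40 and 7.50 in PrlR+/+ and at 7.68, 7.66, 7.79 and 7.74 in PrlR+/- islets, a difference of 0.22 ± 0.068 without overlap (SE; limma, unadjusted p = 0.0129, adjusted p = 0.99). Of 25 further neuron genes 18 were higher and 7 lower, with a median of 0.058. Chrnb4, a nicotinic receptor subunit of autonomic ganglia, differed by 0.27 ± 0.083 (SE) without overlap, though the genotypes were separated only by 8.42 in PrlR+/- 4 against 8.41 in PrlR+/+ 3. The vesicle-sorting gene Nsg2 and the heat-gated channel gene Trpv1 of sensory fibres differed by 0.18 ± 0.077 and 0.17 ± 0.072. Scn9a, a sodium channel of sensory neurons that is also made in islet cells, was lower without overlap, at 9.98, 9.92 and 10.11 in PrlR+/+ and 9.82, 9.51, 9.73 and 9.18 in PrlR+/- islets, a difference of -0.44 ± 0.15.

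Of 8 neurotrophin, GDNF family and neuregulin ligand genes 7 had higher means, against 55.7% of all genes, and none was over 0.11. Nrg3, a ligand of Erbb4, was at 0.095 ± 0.061 and Artn, the ligand of Gfra3, at 0.10 ± 0.068. The 17 relatives of member families had a median of 0.018, with 11 higher and 6 lower. Egr1, an immediate early relative of Egr3, was at 8.62, 8.93 and 10.44 in PrlR+/+ and at 8.41, 8.72, 9.32 and 8.71 in PrlR+/- islets. Its difference was -0.54 ± 0.43 (SE; limma adjusted p = 0.99), with PrlR+/+ 3 above all other mice. Erbb3, the neuregulin receptor of Schwann cells, ranged from 7.25 to 7.82 in PrlR+/+ and was at 7.61, 7.57, 7.57 and 7.57 in PrlR+/- islets.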

How the data were processed

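The authors deposited 1 table of log2 values for 35556 probe sets, with 1 column per mouse. The software, per the submitters' processing notes, was Affymetrix Expression Console 1.2.0.20. How background was corrected and arrays were normalized is not given in the sources used here; their range shows a log2 scale. Per the labels, 250 ng of total RNA with an integrity number above 8.5 was labelled per mouse. Scan dates were not used here, so batch was not tested. Platform annotation gave 21789 probe sets a single symbol, 1621 several and 12146 none; the last 2 kinds were left out. The probe set with the highest mean stood for each gene, which left 19938 genes; each measured member had a single probe set. No filter was applied.

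Differences are PrlR+/- minus PrlR+/+ from limma 3.58.1 (lmFit, eBayes) in R 4.3.3, 2-sided, adjusted by Benjamini-Hochberg over all genes, with 0.05 as the threshold; tables were made with pandas 2.3.3 in Python 3.11.15. A simulation of 19938 genes was run 5 times, with 200 genes changed, some of them 2-fold and others 4-fold. The fit found 85.2% of the smaller changes and 98.2% of the larger ones. Among the genes it called, 4.06% had not been changed. Every member differed by less than 2-fold between genotypes, so these rates do not give the power for differences of the size seen in the members. Arrays have no read depth, and their number limits the precision.

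The members and lists were chosen with earlier results of these data known. Every measured member is named. Values per mouse are given for members with an unadjusted p under 0.05 or no overlap, and for the 2 of smallest p in each group; those of other members were added after they were seen. Of related lists, members with an unadjusted p under 0.05 are named, or else the 2 of smallest p; Erbb3 and Hpcal1 were added with their values known, as were the markers named without overlap. The fit was repeated with other eBayes models, array weights, scalings, filters on dim genes, the mean of probe sets, the acinar mean as covariate, a block for replicate number, and each mouse left out.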

Additional observations from a re-analysis of the deposited data

Results flagged for a closer look

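In 4 of 53 sets of PrlR+/- values examined, 1 mouse lay far from the other 3 relative to the range. Chance gives about 5% of sets if values are normal and without ties. For Cnp, Syp and Elavl2 the other 3 values were identical to 2 decimals, so any gap met the rule and the 5% does not apply. Cnp was at 7.76 in PrlR+/- 4 and 7.93 in each of the others. Syp was at 11.2 in PrlR+/- 3 and 11.36 in each of the others. Elavl2 was at 6.64 in PrlR+/- 1 and 6.47 in each of the others. Elavl3 was at 6.89 in PrlR+/- 3 and between 6.73 and 6.75 in the others. Values identical to 2 decimals on 4 or more arrays occurred in 3 of 50 members and in 15.1% of all genes. The 3 PrlR+/+ mice were too few for this comparison.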

How the results depend on the processing

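Under 17 alternatives limma called 0 members and 0 genes of all at an adjusted p under 0.05; the filters on dim genes tested 38 of the 50 members. Hpcal4, Vip, Uchl1 and Ngfr kept their direction in all 17, and 33 of 50 members did not change sign in any alternative that tested them. Among these, Syn1, Gap43 and Dbh had a difference of 0 with some mouse left out. The other eBayes models, the filters and the mean of probe sets leave a member's difference unchanged, so they could not change a direction. The replicate block gave the same differences as leaving out PrlR+/- 4, which has no control of its number. In place of 2, the count of members higher at an unadjusted p under 0.05 was 12 with array weights (3.25% of all genes) and 4 with quantile normalization (1.42%). In place of 1, the count higher without overlap was 3 with quantile normalization (2.59% of all genes) and 2 with median centring (1.32%). The median of the neuronal genes known in endocrine cells was 0.059 with array weights, and that of the glial genes 0.044 with either filter, which tested 8 of them. That of the other neuronal genes was 0.17 with array weights, 0.185 with either filter and 0.053 with the acinar covariate. The causes were not tested, except that the filters test fewer genes.

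With the replicate number as a block, 9 members were higher at an unadjusted p under 0.05 (0.908% of all genes), 0 were called, and the median of the endocrine-shared genes was 0.085. The numbers do not pair the mice by any label, and deviations of same-numbered mice correlated at 0.09, -0.386 and -0.029 across genes, while PrlR+/+ 1 correlated best with PrlR+/- 2 (0.398).

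With a mouse left out, 36 to 43 members had higher means, 1 to 5 were higher (0.547% to 2.21% of all genes) and 0 to 1 lower (0.692% to 1.77%) at an unadjusted p under 0.05, 2 to 11 were higher (1.53% to 5.19%) and 0 to 2 lower (2.0% to 5.09%) without overlap, and the medians ran from 0.053 to 0.11 (glial), 0.078 to 0.13 (endocrine-shared) and 0.040 to 0.16 (other neuronal); calls stayed at 0. Differences that changed sign ran over Cdh19 -0.020 to 0.23, Egr3 -0.087 to 0.10, Pmp22 -0.13 to 0.087, Mag -0.013 to 0.060, Map2 -0.043 to 0.063, Mapt -0.077 to 0.12, Stmn2 -0.093 to 0.32, Elavl4 -0.068 to 0.16, Th -0.057 to 0.13, Nefh -0.077 to 0.077, Elavl2 -0.043 to 0.11, Phox2a -0.11 to 0.060, Chat -0.030 to 0.053, Slc17a6 -0.12 to 0.037, Tac1 -0.23 to 0.55, Gfra3 -0.35 to 0.098 and Bdnf -0.073 to 0.020.

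The causes of sign changes were not tested. Other differences that changed sign were, with array weights, Egr3 -0.093, Pmp22 0.043, Mag -0.013, Map2 -0.026, Mapt -0.066, Elavl4 -0.054, Th -0.12, Nefh 0.015, Phox2a 0.13 and Slc17a6 0.046; with quantile normalization, Nefh 0.0083; with the acinar covariate, Stmn2 -0.024, Nefh 0.0093, Elavl2 -0.015 and Tac1 -0.051; and with the replicate block, Egr3 -0.087, Pmp22 0.030, Mag -0.013, Mapt -0.077, Th -0.057, Phox2a 0.043, Chat -0.030 and Gfra3 0.013. The lowest signals were those of Gfap, Cdh19, Erbb4, Dbh, Chat and Slc17a6.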
